A study of Mus musculus with 12 samples.

Results

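The difference of the hepatic Eif3m siRNA effect between day 9 and day 13 was taken as the siRNA effect at day 13 minus the siRNA effect at day 9, each effect being Eif3m siRNA over control siRNA on the log2 scale. All 12 libraries of the series enter it, 3 in each of 4 groups. A gene counts as called where edgeR's quasi-likelihood test gave a Benjamini-Hochberg adjusted p under 0.05. Of 14248 genes tested, 364 were called for the difference (2.55%), with 128 differences above 0 (0.898%) and 236 below 0 (1.66%).

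The animals were FVB/N mice, 6 to 8 weeks old, whose livers were ground for RNA. Every mouse was given lipid nanoparticles with siRNA through the tail vein at 0.5 mg/kg, once in 5 days according to the labels, with collection at day 9 or day 13. The control siRNA is a luciferase sequence that the labels also call scrambled, and the other siRNA was directed at Eif3m. The groups are named here as in the labels, d9.cont and d9.Eif3m for day 9 and d13.cont and d13.Eif3m for day 13, followed by the replicate number. All 4 groups received nanoparticles, and no group without them was analysed. Such particles deliver mostly to hepatocytes, while the ground tissue holds every cell type of the liver. Whether the replicate libraries are from different mice is not stated, and p-values therefore refer only to the variation among these libraries.

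Eif3m encodes a subunit of eIF3, the multi-subunit initiation factor that binds the small ribosomal subunit and helps to recruit messenger RNA to it. When initiation or amino acid supply is disturbed, kinases that phosphorylate eIF2 alpha start the integrated stress response, in which ATF4 and CHOP raise the transcripts of a set of stress genes. A difference between the days can come from the siRNA groups, from the control groups or from both, so levels are given for all 4 groups.

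Total counts were 38783564 to 54538581 per library at day 9 and 7650269 to 9630027 at day 13, and the titles give the days different library set names. Day, library set and depth therefore coincide and cannot be told apart. In the titles the leading number of d13.cont 3 is apart from those of the other day 13 libraries, which are consecutive. The titles do not say what these numbers stand for. Within a group, the SD of log2 CPM (counts scaled to library size) had a median over genes of 0.144 in d9.cont, 0.127 in d9.Eif3m, 0.268 in d13.cont and 0.247 in d13.Eif3m. On the third principal component d13.cont 3 stood apart from the others of its group (−52.0 against 18.0 and 15.3), and the d13.Eif3m libraries were spread out (37.6, −36.9 and 4.68 for replicates 1, 2 and 3). Counts without d13.cont 3 and d13.Eif3m 2, the lowest of each day 13 group there, are given for some results. Where they are not given, they may differ as well. Xist was counted in every library (796 to 25081 counts), and the Y-linked genes Ddx3y, Uty, Kdm5d and Eif2s3y had at most 2 counts in any library, so both days had the female pattern. The hepatocyte markers Alb, Apoa1, Ttr and Hnf4a were abundant in all libraries, but their summed level differed between the groups. It was 97277 to 103450 CPM in d9.cont and 70567 to 79432 CPM in d9.Eif3m. At day 13 it was 154980 to 178310 CPM in d13.cont and 81000 to 138240 CPM in d13.Eif3m. None of the 4 was called for the difference. Albumin alone took 8.85% of counts in d9.cont, 7.24% in d9.Eif3m, 14.6% in d13.cont and 9.83% in d13.Eif3m (means of 3 libraries). Summed erythroid marker levels (Hbb-bs, Hba-a1 and Alas2) were 448 to 597 CPM in d9.cont, 306 to 553 CPM in d9.Eif3m, 1651 to 3821 CPM in d13.cont and 447 to 1452 CPM in d13.Eif3m. The part of the hepatocyte and erythroid markers in the results was not tested.

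Eif3m itself (chromosome 2, 104999656 to 105017080 on the minus strand of mm10, with an exon overlap with Ccdc73) was low in every siRNA library at both days. The day 9 levels of Eif3m were 45.1, 44.1 and 45.4 CPM in d9.cont and 4.88, 4.78 and 4.71 CPM in d9.Eif3m. Day 13 gave 39.8, 38.0 and 31.2 CPM in d13.cont and 2.52, 2.41 and 2.19 CPM in d13.Eif3m. The siRNA libraries lay below all controls at both days. The remaining level was 10.7% of the control mean at day 9 and 6.53% at day 13. The siRNA effect was −3.23 (SE 0.11) and −3.94 (SE 0.14) on the log2 scale, and the difference of −0.71 (SE 0.18) was not called (adjusted p = 0.0572). It was called in 1 of the 12 fits that left out a library, the one without d13.cont 3 (adjusted p = 0.0265).

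The number of genes called for the siRNA effect at each day depended on the tool. By edgeR, 1821 genes were called at day 9 (12.8%), 846 higher (5.94%) and 975 lower (6.84%). At day 13, 3377 genes were called (23.7%), 1824 higher (12.8%) and 1553 lower (10.9%). DESeq2 also called more genes at day 13 (3806) than at day 9 (2599), while limma-voom called 2718 at day 13 and 2749 at day 9, and 1960 and 3881 with weights per group. In the edgeR fit, 1139 genes were called at both days, which is 62.5% of the day 9 calls and 33.7% of the day 13 calls. Of these, 1092 had the same direction at both days and 47 the opposite one. Across the 14248 genes, which are not independent replicates, Pearson's r between the day 9 and day 13 effects was 0.393.

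The 364 genes called for the difference fell into classes by their calls at each day. The largest class was called at day 13 and not at day 9, with 209 genes, of which 77 had differences above 0 and 132 below. In 50 genes the effect was called at both days in one direction and was larger at day 13, with 30 differences above 0 and 20 below. The effect changed direction in 47 genes, 7 from lower to higher and 40 from higher to lower. A further 52 genes were called at day 9 and not at day 13, 12 with differences above 0 and 40 below, and 5 at neither day. One gene, Plin3, which coats lipid droplets, was called at both days with the smaller effect at day 13. Its effects were −0.99 (SE 0.10) and −0.42 (SE 0.10), a difference of 0.58 (SE 0.14, adjusted p = 0.0481). Leaving out 1 library ended the call of Plin3 in 11 of 12 fits, each but those without d13.Eif3m 2 (adjusted p up to 0.137).

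**Figure D1:**
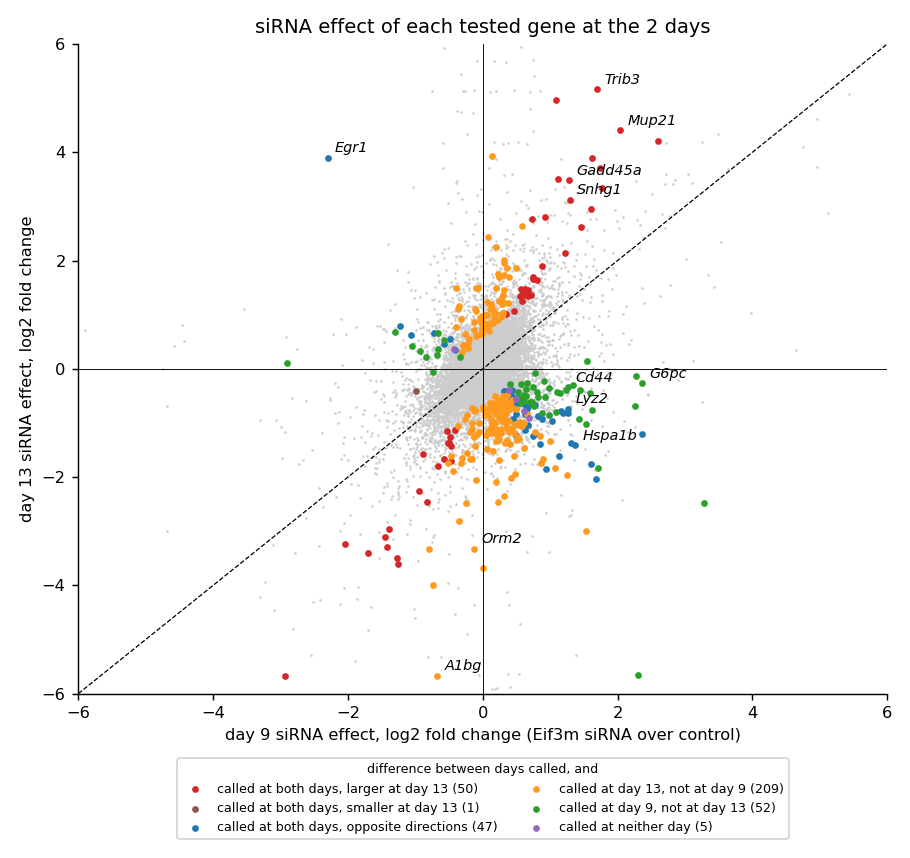
The log2 siRNA effect (Eif3m siRNA over control) of each tested gene at day 9 (horizontal axis) and day 13 (vertical axis), with grey points for genes not called for the difference and colours for the 6 classes of the 364 called genes. The dashed line marks equal effects, and 50 genes with an effect beyond 6 on either axis are not drawn. The 47 blue points lie in the quadrants of opposite sign, and the 50 red points lie farther from 0 at day 13 than at day 9.

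Leaving out single libraries gave between 130 (without d9.Eif3m 1) and 508 (without d13.Eif3m 2) called genes, and 108 of the 364 were called in each of the 12 fits (28 above 0 and 80 below). These 108 included 32 of the 47 genes that changed direction, 52 of the 209 called at day 13 alone, 14 of the 50 that grew and 10 of the 52 called at day 9 alone. Without d13.cont 3 and d13.Eif3m 2 together the counts were 288 above 0 and 230 below. Upper-quartile scaling gave 86 above 0 and 290 below, a share above 0 of 22.9% against 35.2% with the main scaling, and moved the median difference of all genes from 0.03 to −0.02. Without d9.cont 1, d9.cont 2, d9.cont 3, d9.Eif3m 1, d9.Eif3m 3, d13.cont 1 or d13.Eif3m 3 the count was 130 to 222, depending on the library. The sign of the difference was kept by each of the 364 genes in every setting in which it was tested. These settings refit the libraries from which the 364 genes were called, so the kept signs are not independent support.

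**Figure D2:**
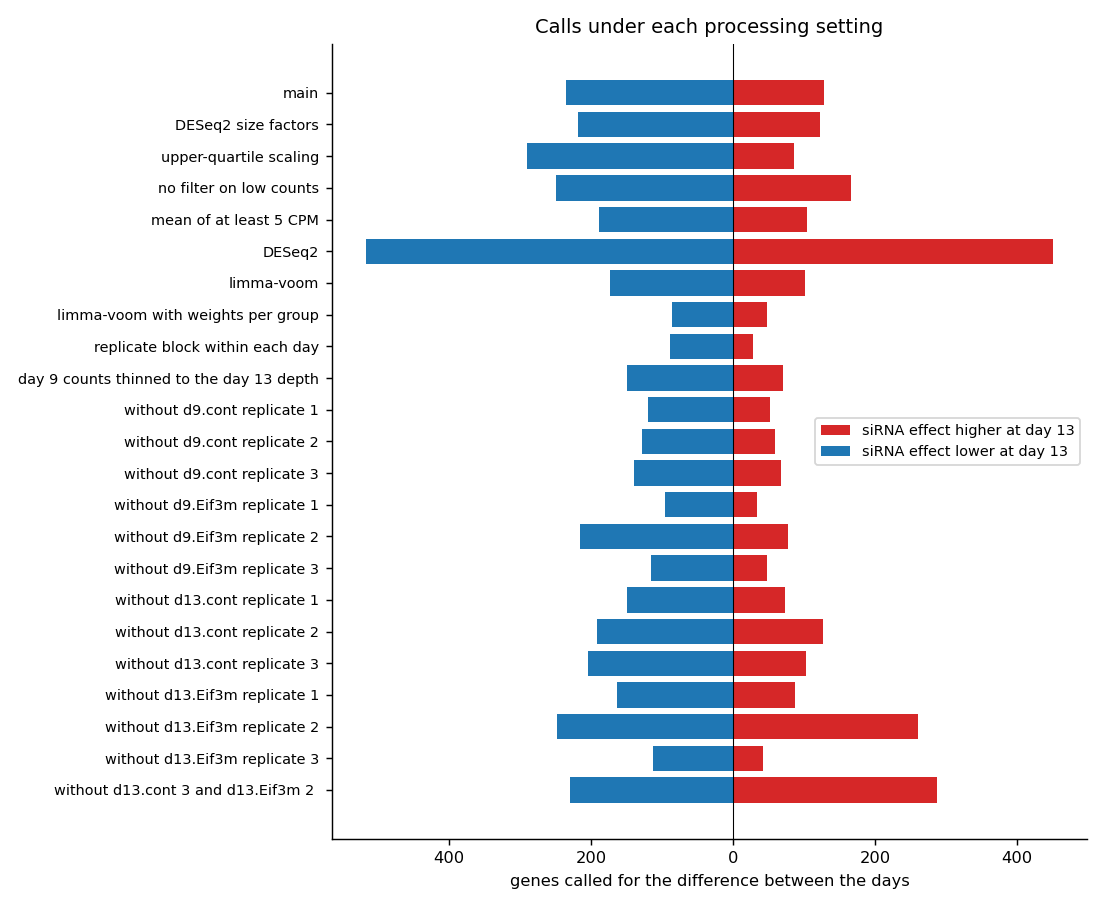
The number of genes called for the difference under each setting, with bars to the right for differences above 0 and to the left for differences below 0. DESeq2 gives the longest bars, and the replicate block, the weights per group and the fit without d9.Eif3m 1 the shortest.

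Control levels also moved between the days. Between d9.cont and d13.cont 3201 genes were called (22.5%), and between d9.Eif3m and d13.Eif3m 3689 genes (25.9%). The difference of the effects is the second change minus the first, so these comparisons share all their libraries with it and their values are given side by side. Among the 40 genes that changed from higher to lower, the median log2 change from day 9 to day 13 was 0.72 in the control groups and −0.76 in the siRNA groups. Among the 30 genes whose rise grew, it was −0.19 in the control groups and 0.97 in the siRNA groups. Among the 132 genes lower at day 13 alone, it was 0.69 in the control groups and −0.61 in the siRNA groups. Among the 12 genes with differences above 0 at day 9 alone, it was −1.55 in the control groups and 0.05 in the siRNA groups.

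**Figure D3:**
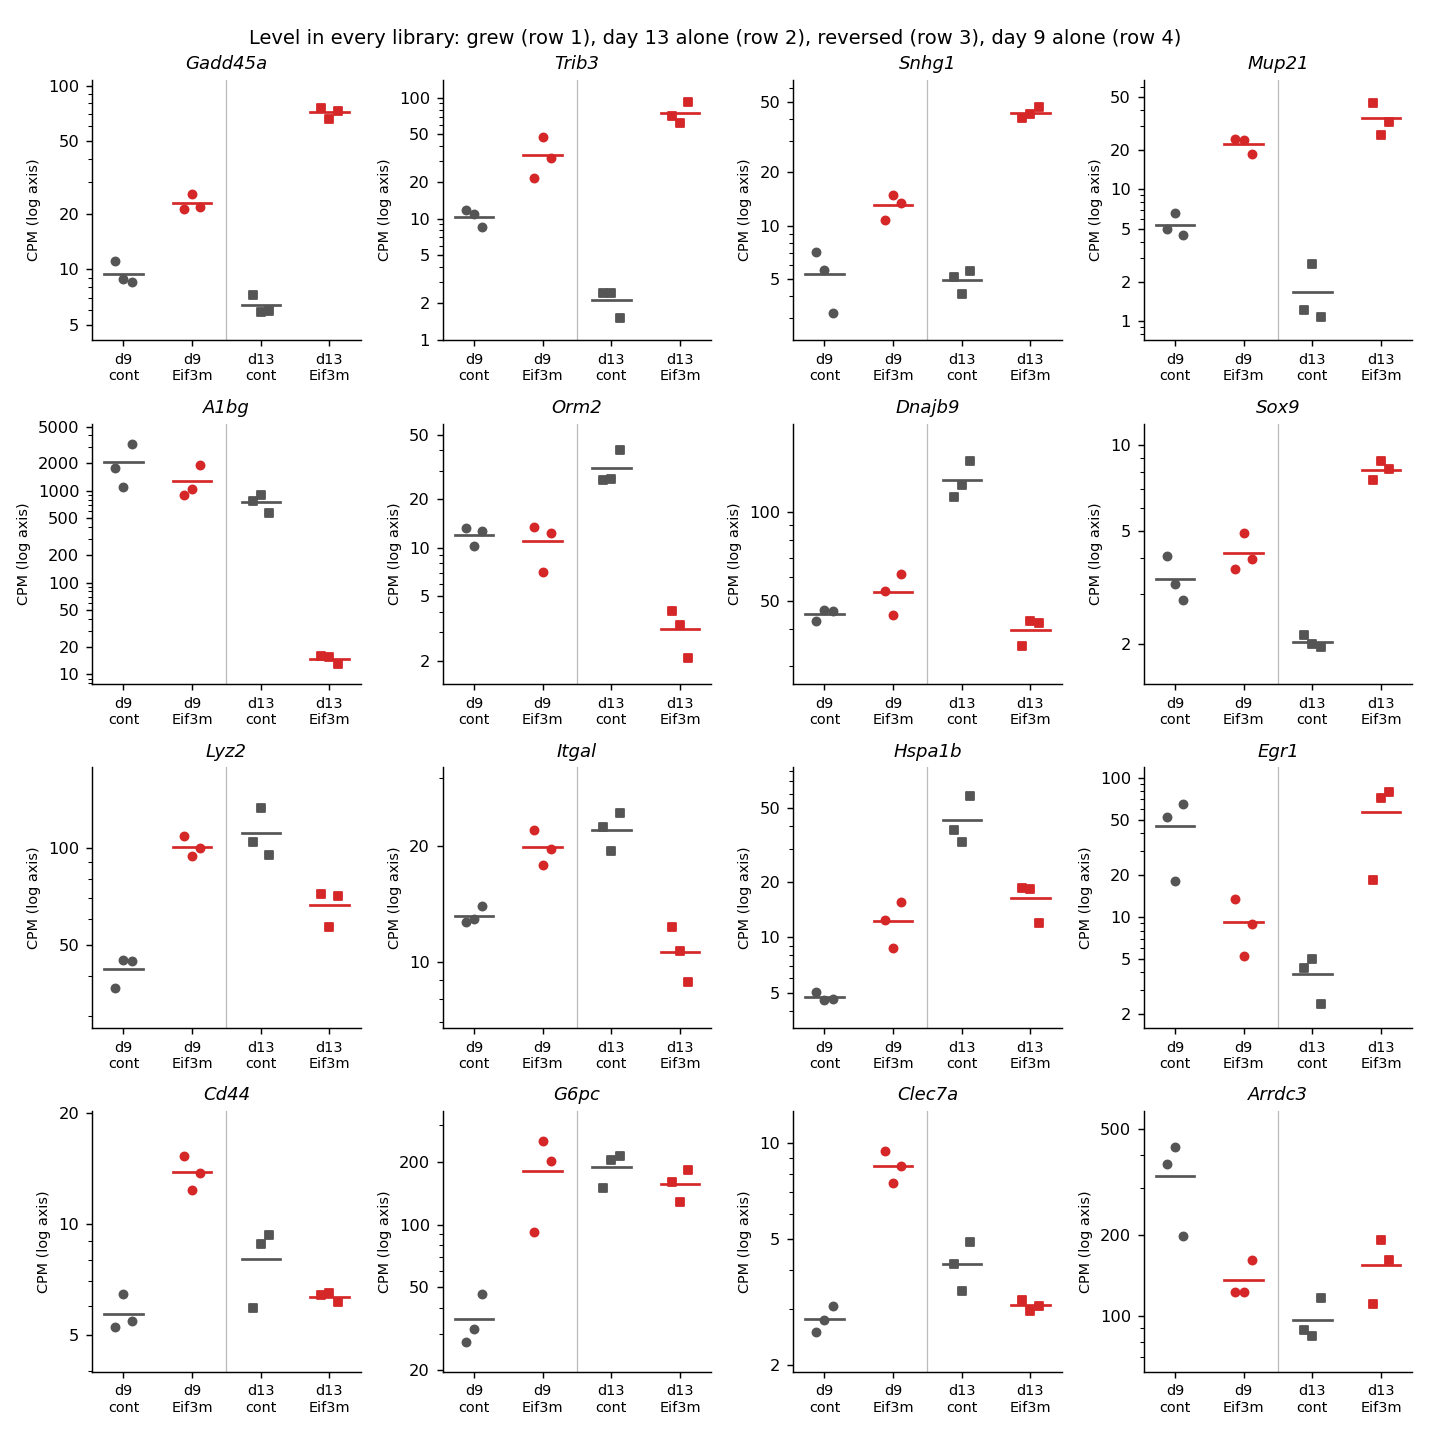
The level of 16 genes in every library, in CPM on a log axis, with grey for control siRNA, red for Eif3m siRNA, circles for day 9, squares for day 13 and a bar for each group mean. Rows 1 to 4 hold genes whose effect grew, was called at day 13 alone, changed direction or was called at day 9 alone. Lyz2 shows controls below siRNA libraries at day 9 and above them at day 13.

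Trib3, Gdf15 and Ddit3 of the integrated stress response and the p53 targets Gadd45a and Plk2 were among the 30 genes whose rise grew. Trib3, a pseudokinase induced by ATF4 and CHOP, had the highest difference among the stress genes. In d9.cont Trib3 stood at 11.9, 10.8 and 8.52 CPM, and in d9.Eif3m at 21.6, 47.7 and 31.7 CPM. For Trib3 the day 13 levels were 2.42, 2.42 and 1.52 CPM in d13.cont and 70.2, 61.9 and 92.1 CPM in d13.Eif3m. The siRNA libraries lay above the controls at both days, and the day 13 controls lay below all day 9 controls. The effect went from 1.69 (SE 0.26) to 5.16 (SE 0.35), a difference of 3.47 (SE 0.44, adjusted p = 0.00277).

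Gadd45a, a growth arrest and DNA damage gene that answers to p53 and to stress, had the smallest p of all genes for the difference. Levels of Gadd45a in d9.cont were 11.0, 8.85 and 8.57 CPM and in d9.Eif3m 21.1, 25.7 and 21.9 CPM. At day 13 Gadd45a was at 7.27, 5.84 and 5.96 CPM in d13.cont and 75.7, 65.6 and 72.7 CPM in d13.Eif3m. The d13.cont libraries were the lowest and the d13.Eif3m libraries the highest of all. The difference was 2.21 (SE 0.20, adjusted p = 0.000376). Gdf15, a secreted stress hormone, went from an effect of 1.62 (SE 0.20) to 3.90 (SE 0.28) from day 9 to day 13, a difference of 2.28 (SE 0.36, adjusted p = 0.00731). Ddit3, which encodes CHOP and shares exon positions with Mars and Gm4189, so that its counts are uncertain, went from an effect of 2.60 (SE 0.23) to 4.20 (SE 0.27), a difference of 1.60 (SE 0.34, adjusted p = 0.0295). For Ddit3 6 of 12 leave-one-out fits gave no call, those without d9.cont 1, d9.cont 2, d9.Eif3m 1, d9.Eif3m 3, d13.Eif3m 1 and d13.Eif3m 3 (adjusted p up to 0.0808).

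The list of 28 tested integrated stress response genes was not uniform. Its called members were 4 above 0 (Trib3, Gdf15, Gpt2 and Ddit3) and 2 below, beside 0.898% and 1.66% of all tested genes. The median effect of the list was 0.47 at day 9 and 0.29 at day 13, with a median difference of 0.14. Over all 14248 genes these medians were 0.01, 0.00 and 0.03. Gpt2, an alanine aminotransferase, was at 334 to 394 CPM in d9.cont, 381 to 434 CPM in d9.Eif3m, 148 to 188 CPM in d13.cont and 303 to 357 CPM in d13.Eif3m. The d13.cont libraries lay below all others and the groups overlapped at day 9, and the difference was 0.84 (SE 0.17, adjusted p = 0.0203). The 2 members below 0 were Ddit4, an inhibitor of mTORC1, at −1.32 (SE 0.30, adjusted p = 0.0398), and Herpud1, a membrane protein of the endoplasmic reticulum (ER), at −0.84 (SE 0.19, adjusted p = 0.0421), both named after their values were seen. Depending on the library left out, 2 to 4 members were called above 0 and 0 to 2 below, with 2 and 0 without d9.Eif3m 1. Gpt2 was not called in 3 of 12 leave-one-out fits, those without d9.cont 3, d9.Eif3m 1 and d13.cont 1 (adjusted p up to 0.0557). The call of Ddit4 was lost in 9 of 12 leave-one-out fits, each but those without d9.cont 3, d13.cont 3 and d13.Eif3m 1 (adjusted p up to 0.107). Leaving out 1 library ended the call of Herpud1 in 8 of 12 fits, each but those without d9.cont 2, d9.Eif3m 2, d13.cont 2 and d13.Eif3m 2 (adjusted p up to 0.111).

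The core of the composite site of ATF4 and C/EBP proteins, TGATGNAA, was searched on both strands of the RefSeq promoter windows of the 6 called members (GRCm38.p6, 250 bases before to 50 after each start). It was found for Trib3 and Herpud1, that is for 1 gene on each side of 0, and not for Gdf15, Gpt2, Ddit3 or Ddit4. Of all 32851 such windows 3.97% held it. The Trib3 match lies 14 bases after the start and is shown because Trib3 has the highest difference of the list. It reads, on the strand of the gene at chr2:152344028-152344057 (minus strand), with the match, here on the opposite strand, in capitals:
Trib3: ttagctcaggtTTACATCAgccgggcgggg
A match is a description of the letters and was not tested as a binding site.

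Of 31 tested p53 targets 2 were called, both above 0, Gadd45a and Plk2, a polo-like kinase, beside 0.898% of all tested genes called above 0. Of the list, 19 members were called higher at day 9 and 17 at day 13, and its median effect was 0.93 and 0.68. Plk2 went from an effect of 0.74 (SE 0.14) to 1.65 (SE 0.16), a difference of 0.91 (SE 0.22, adjusted p = 0.045). For Plk2 10 of 12 leave-one-out fits gave no call, each but those without d13.cont 1 and d13.Eif3m 1 (adjusted p up to 0.114).

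Called members of the lists of the translation machinery all had differences above 0, and most members of each list were not called. The hosts of small nucleolar RNAs are noncoding transcripts that often start with oligopyrimidine tracts. Of 11 tested hosts 3 were called, all above 0, beside 0.898% of all tested genes called above 0. Their list had a median effect of 1.27 at day 9 and 1.80 at day 13. At day 9 Snhg1 was at 7.12, 5.62 and 3.23 CPM in d9.cont and 10.7, 15.0 and 13.5 CPM in d9.Eif3m. At day 13 it was at 5.11, 4.13 and 5.52 CPM in d13.cont and 40.6, 42.6 and 46.6 CPM in d13.Eif3m. The siRNA libraries of Snhg1 lay above its controls at both days, and its day 13 controls lay within the range of its day 9 controls. The difference was 1.83 (SE 0.34, adjusted p = 0.0152). Zfas1 went from an effect of 1.77 (SE 0.21) to 3.35 (SE 0.24), a difference of 1.57 (SE 0.31, adjusted p = 0.0199). Gas5 went from an effect of 1.60 (SE 0.20) to 2.95 (SE 0.22), a difference of 1.34 (SE 0.29, adjusted p = 0.0292). Exons of the 3 hosts overlap the small nucleolar RNAs that lie in them, and counts may be shared. Zfas1 was not called in 2 of 12 leave-one-out fits, those without d9.Eif3m 1 and d9.Eif3m 3 (adjusted p up to 0.0619). The call of Gas5 was lost in 6 of 12 leave-one-out fits, those without d9.cont 1, d9.cont 2, d9.Eif3m 1, d9.Eif3m 3, d13.Eif3m 1 and d13.Eif3m 3 (adjusted p up to 0.0954).

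Ribosomal protein transcripts took 0.959% of all counts in d9.cont and 0.953% in d13.cont, 1.48% in d9.Eif3m and 2.33% in d13.Eif3m (means of 3 libraries). Of 48 tested large-subunit proteins 4 were called for the difference and of 34 small-subunit proteins 1, all above 0. Of all tested genes 0.898% were called above 0. The median effect of the large-subunit list was 0.46 at day 9 and 1.06 at day 13, with 16 and 41 members called higher. That of the small-subunit list was 0.53 and 1.18, with 18 and 29 members called higher. Rplp0, a protein of the ribosomal stalk, went from an effect of 0.67 (SE 0.14) to 1.45 (SE 0.14), a difference of 0.78 (SE 0.19, adjusted p = 0.0498). The day 13 levels were 469.9, 509 and 374 CPM in d13.cont and 1317, 1015 and 1363 CPM in d13.Eif3m. Rpl4 had a difference of 0.74 (SE 0.17, adjusted p = 0.0429) and Rps4x one of 0.79 (SE 0.17, adjusted p = 0.0336). In all 3 genes the d13.Eif3m libraries lay above every other library. Rpl29 and Rpl9, the other called members, did not show this order. Rpl29 was at 19.7 to 21.7 CPM in d9.cont, 22.2 to 23.1 in d9.Eif3m, 4.77 to 8.88 in d13.cont and 14.3 to 19.6 in d13.Eif3m. Its difference was 1.07 (SE 0.25, adjusted p = 0.0423), and its controls changed by −1.58 (SE 0.19) between the days. For Rpl9 the siRNA ranges of the days overlapped (269 to 306 and 296 to 337 CPM).

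These ribosomal counts rested on single libraries and on the scaling. Without d13.Eif3m 2 they were 16 large-subunit and 7 small-subunit members, without d13.cont 2 they were 8 and 5, and without d13.cont 1 they were 1 and 0. Without any one of the other 9 libraries no member was called. Without d13.cont 3 and d13.Eif3m 2 together they were 20 and 15 members above 0, with 1 below in each list. With upper-quartile scaling they were 0 and 1. DESeq2 called 12 and 7, and at an unadjusted p under 0.05 there were 27 and 22 members above 0 and none below. Over all 14248 tested genes 2598 had such a p, in either direction.

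Of 32 tested translation factors outside eIF3 2 were called, of 54 large-subunit assembly factors 2, of 48 small-subunit assembly factors 0 and of 78 mitochondrial ribosomal proteins 0. Over all tested genes 2.55% were called, 0.898% above 0. Counts this small are not read as a result about a list. Pabpc4, a cytoplasmic poly(A)-binding protein, went from an effect of 0.81 (SE 0.11) to 1.65 (SE 0.12), a difference of 0.84 (SE 0.16, adjusted p = 0.0189). Eef1b2, an exchange factor for eEF1A, differed by 0.94 (SE 0.22, adjusted p = 0.0448), and Npm1, a nucleolar protein of ribosome assembly, by 0.66 (SE 0.16, adjusted p = 0.0455). Of the subunits of eIF3 outside its core, Eif3i was called, with 58.5 to 60.1 CPM in d9.cont, 64.4 to 69.7 CPM in d9.Eif3m, 40.8 to 57.3 CPM in d13.cont and 93.1 to 113 CPM in d13.Eif3m. The difference of Eif3i was 0.89 (SE 0.18, adjusted p = 0.0209). None of 8 core subunits was called by edgeR, DESeq2 or limma-voom. Of them, 6 had an unadjusted p under 0.05, as did 2598 of all 14248 tested genes. Without d9.Eif3m 1 the call of Pabpc4 was lost (adjusted p = 0.0553). For Eef1b2 10 of 12 leave-one-out fits gave no call, each but those without d13.cont 2 and d13.Eif3m 2 (adjusted p up to 0.127). Npm1 was not called in 10 of 12 leave-one-out fits, each but those without d13.cont 2 and d13.Eif3m 2 (adjusted p up to 0.131). The call of Eif3i was lost in 2 of 12 leave-one-out fits, those without d9.Eif3m 1 and d13.Eif3m 3 (adjusted p up to 0.0741).

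**Figure D4:**
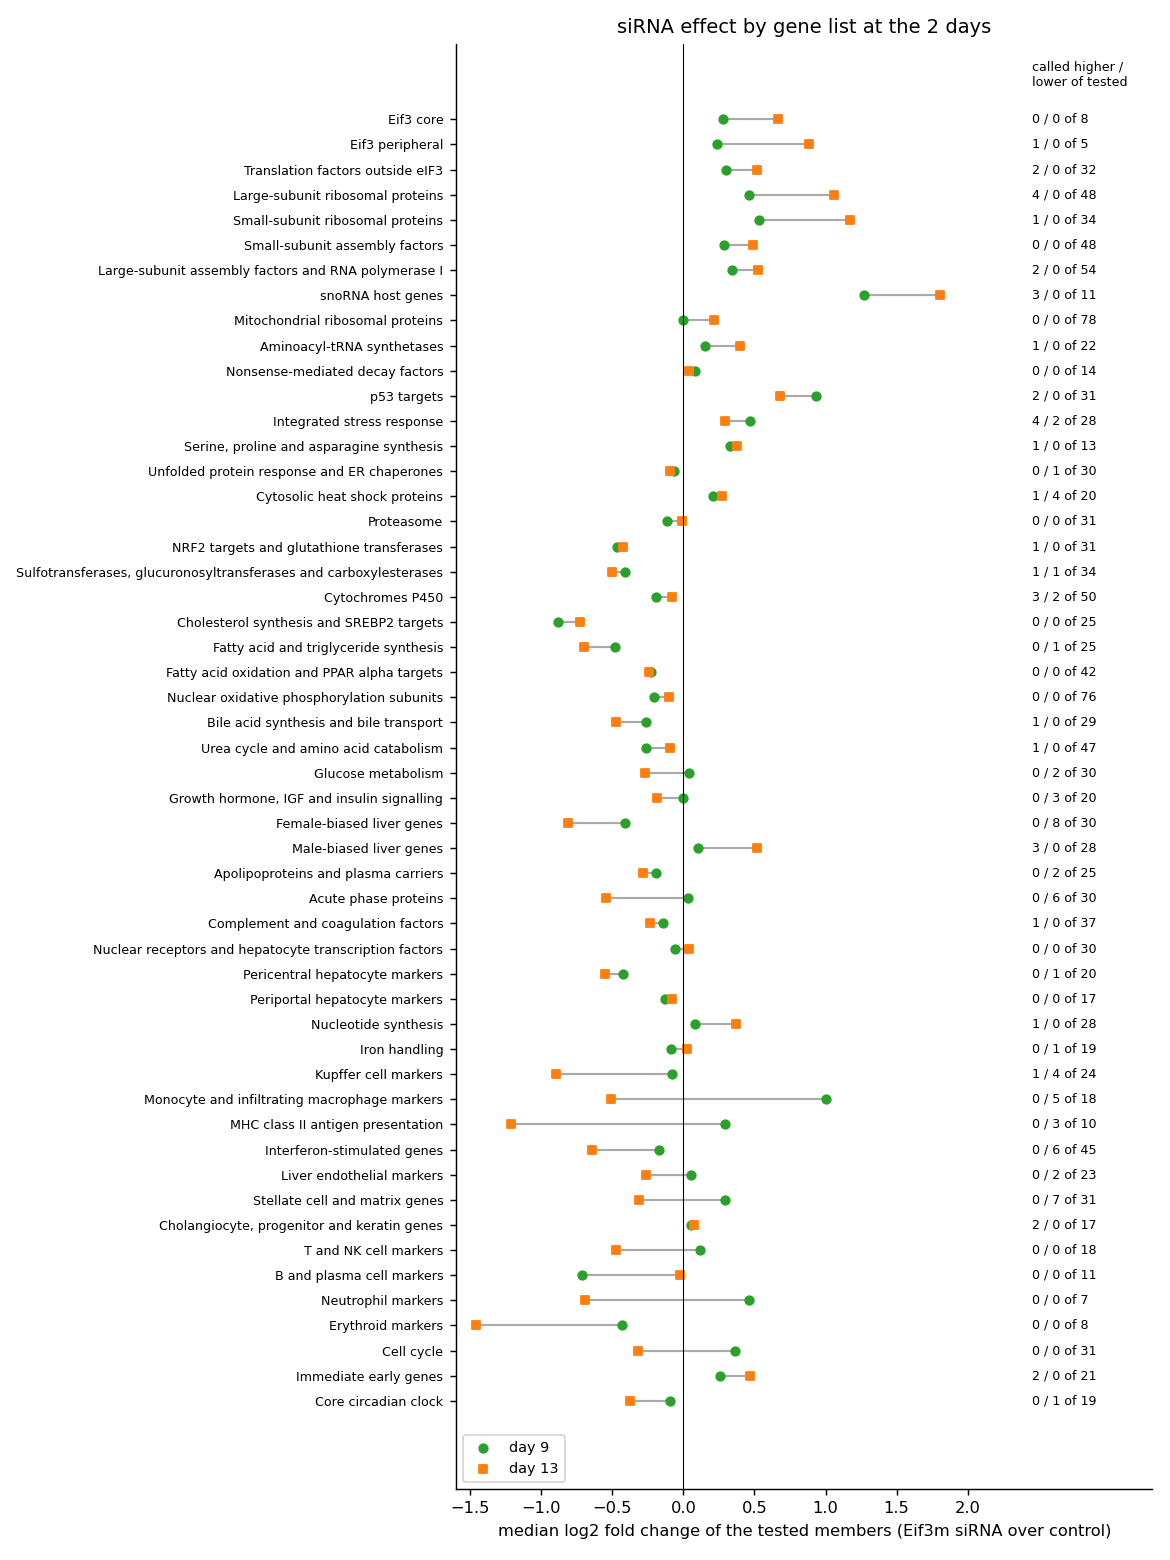
The median log2 siRNA effect of the tested members of each gene list other than that of sex-linked genes at day 9 (circles) and day 13 (squares), with the number of members called for the difference above and below 0 at the right. Ribosomal protein and small nucleolar RNA host lists lie to the right of 0 at both days and farther at day 13, while the monocyte and macrophage and the MHC class II lists lie right of 0 at day 9 and left of it at day 13.

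Genes expressed differently between male and female liver follow the sex-specific pattern of growth hormone secretion. Of 30 tested female-biased genes 8 were called, all below 0, beside 1.66% of all tested genes called below 0. Of 28 male-biased genes 3 were called, all above 0, beside 0.898% of all tested genes called above 0. The female-biased list had a median effect of −0.41 at day 9 and −0.81 at day 13, and the male-biased list 0.10 and 0.52. A1bg, a plasma protein of female liver, was the female-biased gene with the largest change. The day 9 levels of A1bg were 1753, 1102 and 3271 CPM in d9.cont and 896, 1052 and 1887 CPM in d9.Eif3m. In d13.cont it stood at 772, 901 and 572 CPM, and in d13.Eif3m at 15.9, 15.3 and 12.9 CPM. The groups overlapped at day 9, and at day 13 the siRNA libraries lay far below all others. The difference was −4.99 (SE 0.57, adjusted p = 0.00277).

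The other female-biased examples had the same order of groups at day 13. Slc22a26, an organic anion transporter, went from an effect of −1.42 (SE 0.23) to −3.29 (SE 0.26), a difference of −1.88 (SE 0.33, adjusted p = 0.0142). Sult3a1, a sulfotransferase, went from an effect of −1.25 (SE 0.32) to −3.61 (SE 0.36), a difference of −2.36 (SE 0.46, adjusted p = 0.0257). Fmo2, a flavin monooxygenase, was at 35.6 to 37.3 CPM in d9.cont and 24.3 to 42.2 CPM in d9.Eif3m, which overlap, and at 44.7 to 74.8 CPM in d13.cont and 10.51 to 18.1 CPM in d13.Eif3m, which do not. Its difference was −1.96 (SE 0.33, adjusted p = 0.011). Leaving out 1 library ended the call of Sult3a1 in 2 of 12 fits, those without d9.cont 2 and d13.Eif3m 1 (adjusted p up to 0.0566).

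Among the male-biased genes, Mup21, a major urinary protein, rose at both days. In d9.cont Mup21 stood at 4.99, 6.66 and 4.49 CPM, and in d9.Eif3m at 24.1, 23.7 and 18.6 CPM. Its levels in d13.cont were 1.21, 2.71 and 1.08 CPM and in d13.Eif3m 45.0, 25.8 and 32.6 CPM. Its d13.cont libraries were the lowest of all, and the difference was 2.36 (SE 0.41, adjusted p = 0.0122). Major urinary proteins are close copies of each other, so the split of their counts is uncertain. Hsd3b5, a steroid dehydrogenase of male liver, was at 9.51 to 13.2 CPM in d9.cont and 9.97 to 13.4 CPM in d9.Eif3m. It was at 1.41 to 5.70 CPM in d13.cont and 15.9 to 26.3 CPM in d13.Eif3m, so that the groups overlapped at day 9 alone, and the difference was 2.35 (SE 0.46, adjusted p = 0.0239). C6, a complement component, had a difference of 1.53 (SE 0.30, adjusted p = 0.0195). For Hsd3b5 3 of 12 leave-one-out fits gave no call, those without d9.cont 1, d9.Eif3m 1 and d13.Eif3m 3 (adjusted p up to 0.0671). Without d13.cont 1 the call of C6 was lost (adjusted p = 0.0511).

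Of 20 tested genes of growth hormone, IGF and insulin signalling, 3 were called, all below 0, beside 1.66% of all tested genes. Socs2, a feedback inhibitor induced by growth hormone through STAT5, was at 31.6, 22.5 and 19.04 CPM in d9.cont and 38.2, 19.2 and 26.4 CPM in d9.Eif3m. The d13.cont libraries had 51.5, 45.6 and 31.3 CPM and the d13.Eif3m libraries 13.1, 8.44 and 8.87 CPM. The groups overlapped at day 9, and the d13.Eif3m libraries were the lowest of all. The difference was −2.29 (SE 0.41, adjusted p = 0.0168). Prlr, the prolactin receptor, went from an effect of −0.50 (SE 0.12) to −1.36 (SE 0.12), a difference of −0.87 (SE 0.17, adjusted p = 0.0199). Depending on the library left out, 5 (without d9.cont 2 or d13.Eif3m 1) to 10 (without d13.cont 2) female-biased genes were called below 0, 4 without d13.cont 3 and d13.Eif3m 2 together, and 2 to 4 male-biased genes above 0. Without d13.Eif3m 3, 1 growth hormone gene was called. Without d13.Eif3m 3 the call of Socs2 was lost (adjusted p = 0.0549).

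Of 20 tested cytosolic heat shock proteins 1 was called above 0 and 4 below, beside 0.898% and 1.66% of all tested genes. The median effect of the list was 0.21 at day 9 and 0.27 at day 13. The inducible HSP70 genes Hspa1b and Hspa1a, neighbours on chromosome 17 that encode nearly identical chaperones, changed direction. Their 250 bases before the RefSeq start (GRCm38.p6, minus strand) are shown because the pair moved together and because its reads can be shared. Capitals mark the heat shock inverted repeat, searched on both strands as GAANNTTC or TTCNNGAA, letters chosen after the values were seen.
Hspa1b, chr17:34959239-34959488: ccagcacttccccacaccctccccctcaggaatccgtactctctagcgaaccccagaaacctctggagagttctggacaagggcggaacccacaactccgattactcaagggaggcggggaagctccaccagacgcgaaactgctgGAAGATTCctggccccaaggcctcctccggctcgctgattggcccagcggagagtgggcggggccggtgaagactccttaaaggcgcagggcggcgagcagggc
Hspa1a, chr17:34972157-34972406: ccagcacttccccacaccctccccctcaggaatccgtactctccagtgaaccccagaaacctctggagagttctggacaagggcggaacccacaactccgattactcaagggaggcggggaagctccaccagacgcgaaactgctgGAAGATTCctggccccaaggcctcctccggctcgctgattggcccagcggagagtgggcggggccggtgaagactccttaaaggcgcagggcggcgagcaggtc
The 2 windows are identical at 247 of 250 bases (98.8%), each holds 1 match, and 12.8% of all 32851 windows of this length hold one. Of the other called heat shock genes, Hspb1, whose difference lay above 0, holds 2 matches in its window. Dnajb1 and Bag3, whose differences lay below 0 like those of the pair, hold none before the start, and Bag3 has 1 match 42 bases after it. The match was not tested as a binding site.

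Levels of Hspa1b in d9.cont were 5.07, 4.59 and 4.61 CPM and in d9.Eif3m 12.4, 8.80 and 15.6 CPM. Day 13 gave 38.1, 32.9 and 58.6 CPM in d13.cont and 18.6, 18.3 and 11.9 CPM in d13.Eif3m. Hspa1b was thus higher with Eif3m siRNA at day 9 and lower at day 13, with no overlap at either day, and its control levels differed by 3.19 (SE 0.26) on the log2 scale between the days. The effect went from 1.37 (SE 0.24) to −1.42 (SE 0.25), a difference of −2.78 (SE 0.35, adjusted p = 0.00256). Hspa1a followed the same order and went from an effect of 1.60 (SE 0.35) to −1.76 (SE 0.40), a difference of −3.37 (SE 0.53, adjusted p = 0.00731). Counts of the pair may be split between the copies.

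Dnajb1, a co-chaperone of HSP70 named after its values were seen, had a difference of −1.14 (SE 0.23, adjusted p = 0.0246). Bag3, a co-chaperone that links HSP70 to selective autophagy, went from an effect of −0.48 (SE 0.15) to −1.71 (SE 0.16), a difference of −1.23 (SE 0.21, adjusted p = 0.0118). Its control mean was 24.6 CPM at day 9 and 62.0 CPM at day 13, and its siRNA mean 17.6 and 18.98 CPM. Hspb1, a small heat shock protein, moved the other way. At day 9 Hspb1 was at 2.11, 1.86 and 1.67 CPM in d9.cont and 2.89, 3.40 and 3.03 CPM in d9.Eif3m. For Hspb1 the day 13 levels were 1.48, 2.71 and 1.84 CPM in d13.cont and 10.8, 15.7 and 14.2 CPM in d13.Eif3m. The ranges of its controls overlapped between the days, the siRNA libraries lay above them, and the difference was 2.04 (SE 0.30, adjusted p = 0.00477). Leaving out 1 library ended the call of Dnajb1 in 6 of 12 fits, those without d9.cont 1, d9.cont 2, d9.Eif3m 1, d9.Eif3m 3, d13.cont 1 and d13.Eif3m 3 (adjusted p up to 0.0646).

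Of 30 tested genes of the unfolded protein response and ER chaperones 1 was called, beside 2.55% of all tested genes. It was Dnajb9, an ER co-chaperone of BiP that IRE1 signalling induces. The day 9 levels of Dnajb9 were 42.6, 46.5 and 46.2 CPM in d9.cont and 54.0, 44.8 and 61.7 CPM in d9.Eif3m. At day 13 Dnajb9 was at 113, 123 and 148 CPM in d13.cont and 35.1, 42.6 and 42.2 CPM in d13.Eif3m. The d13.cont libraries stood above all others, and no d13.Eif3m library exceeded the lowest day 9 library. The difference was −1.92 (SE 0.20, adjusted p = 0.000664). Of the 30 genes, 16 had differences above 0. The list does not hold every ER stress gene, and Herpud1, given before, is counted elsewhere. Eif2ak3, which encodes the eIF2 alpha kinase PERK of the ER, is not in it and was named after its values were seen. Eif2ak3 differed by −1.19 (SE 0.16, adjusted p = 0.00277). Its controls changed by 0.82 between the days and its siRNA groups by −0.37.

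Of 18 tested monocyte and infiltrating macrophage markers 5 were called, all below 0, beside 1.66% of all tested genes called below 0. Lyz2 and Itgax changed direction, Clec7a and Ccr2 were called at day 9 alone and Ms4a7 at day 13 alone, Ccr2 and Ms4a7 being named after their values were seen. At day 9, 6 members were called higher and at day 13, 4 were called lower, and the median effect was 1.00 at day 9 and −0.51 at day 13. Lyz2, the lysozyme of myeloid cells, was among the 3 smallest p of all genes together with Gadd45a and Dnajb9. In d9.cont Lyz2 stood at 36.8, 44.7 and 44.5 CPM, and in d9.Eif3m at 108, 94.5 and 99.6 CPM. At day 13 it was at 104, 133 and 95.0 CPM in d13.cont and 71.7, 56.8 and 70.6 CPM in d13.Eif3m. The siRNA libraries lay above the controls at day 9 and below them at day 13. The effect went from 1.26 (SE 0.14) to −0.74 (SE 0.14), a difference of −2.00 (SE 0.20, adjusted p = 0.000664), and the control mean from 42.0 to 111 CPM.

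The siRNA libraries of Itgax and Itgal also lay above the controls at day 9 and below them at day 13. Itgax, which encodes CD11c, was below 3 CPM in all libraries, and its counts ran from 1 in d13.Eif3m to 142 in d9.Eif3m. It went from an effect of 1.68 (SE 0.28) to −2.04 (SE 0.47), a difference of −3.72 (SE 0.54, adjusted p = 0.00477). Itgal, the alpha chain of the leukocyte integrin LFA-1, went from an effect of 0.59 (SE 0.13) to −1.07 (SE 0.15), a difference of −1.65 (SE 0.20, adjusted p = 0.00232). In ground liver, fewer cells of a type and less RNA per cell cannot be told apart.

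Clec7a and Cd44 were called at day 9 alone. Clec7a, the receptor dectin-1, was at 2.55, 2.77 and 3.06 CPM in d9.cont and 9.43, 7.499 and 8.46 CPM in d9.Eif3m. The day 13 levels were 4.17, 3.42 and 4.87 CPM in d13.cont and 3.22, 2.97 and 3.07 CPM in d13.Eif3m. It was high in d9.Eif3m and the difference was −2.04 (SE 0.25, adjusted p = 0.00232). Cd44, a receptor for hyaluronan on many cell types, went from an effect of 1.27 (SE 0.15) to −0.34 (SE 0.19), a difference of −1.61 (SE 0.24, adjusted p = 0.00504). The MHC class I gene H2-Q7, one of several close copies, went from an effect of 1.10 (SE 0.17) to −0.43 (SE 0.18), a difference of −1.53 (SE 0.25, adjusted p = 0.0079).

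The defining markers of Kupffer cells, which are macrophages resident in liver, were lower with Eif3m siRNA at both days by their summed level. The sum of Clec4f, Vsig4, Timd4, Cd5l and Marco was 215 to 259 CPM in d9.cont, 133 to 161 CPM in d9.Eif3m, 179 to 240 CPM in d13.cont and 81.6 to 142 CPM in d13.Eif3m. None of these 5 was called for the difference. The summed level of Lyz2, Ccr2, Ly6c2, Itgam, Gpnmb and Trem2 was 40.6 to 48.6, 101 to 116, 99.97 to 141 and 60.9 to 75.9 CPM in the same groups. Of these 6, 2 were called, both below 0, beside 1.66% of all tested genes called below 0. No marker of either set was at 0 in all libraries, and their part in the other results was not tested.

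Of the wider Kupffer list of 24 genes, 4 were called below 0 and 1 above, beside 1.66% and 0.898% of all tested genes. The member above 0 is C6, the complement component given before among the male-biased genes. Csf1r, the receptor for the macrophage growth factor CSF1, was at 49.0 to 61.2 CPM in d9.cont and 59.6 to 63.3 CPM in d9.Eif3m. In d13.cont it stood at 74.8, 75.2 and 86.2 CPM, and in d13.Eif3m at 34.8, 28.7 and 39.6 CPM. The groups overlapped at day 9 and separated at day 13, and the difference was −1.39 (SE 0.18, adjusted p = 0.00256). Adgre1, which encodes F4/80, differed by −1.53 (SE 0.23, adjusted p = 0.00536). Slc40a1, the iron exporter ferroportin of macrophages and hepatocytes, went from an effect of 0.46 (SE 0.13) to −0.65 (SE 0.13), a difference of −1.11 (SE 0.18, adjusted p = 0.00862).

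MHC class II antigen presentation had 3 of 10 tested members called, all below 0, beside 1.66% of all tested genes called below 0. Its median effect was 0.29 at day 9 and −1.21 at day 13, with 0 members called lower at day 9 and 6 at day 13. Ctss, the protease that trims the invariant chain, was at 29.4 to 37.0 CPM in d9.cont and 34.6 to 45.1 CPM in d9.Eif3m. Its levels in d13.cont were 50.6, 45.9 and 49.2 CPM and in d13.Eif3m 22.4, 19.8 and 22.3 CPM. Its d13.Eif3m libraries were the lowest of all, and the difference was −1.44 (SE 0.18, adjusted p = 0.00232). Cd74, the invariant chain, differed by −1.70 (SE 0.31, adjusted p = 0.0151) and H2-Aa, a class II alpha chain, by −1.67 (SE 0.32, adjusted p = 0.0199). The number called ran from 2 (without d9.Eif3m 1 or d13.Eif3m 3) to 6 (without d13.cont 2), with 5 without d13.Eif3m 1. That of the monocyte list was 3 without d9.cont 1, d9.cont 2, d9.Eif3m 1, d9.Eif3m 2, d9.Eif3m 3, d13.cont 2, d13.Eif3m 2 or d13.Eif3m 3, and 4 or 5 otherwise. For H2-Aa 2 of 12 leave-one-out fits gave no call, those without d9.Eif3m 1 and d13.Eif3m 3 (adjusted p up to 0.0575).

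Of 45 interferon-stimulated genes 6 were called, all below 0, beside 1.66% of all tested genes called below 0. The median effect was −0.17 at day 9 and −0.64 at day 13. Zbp1, a sensor of Z-form nucleic acids, was at 5.45, 4.30 and 6.61 CPM in d9.cont, 5.94, 2.90 and 3.94 CPM in d9.Eif3m and 4.04, 6.98 and 6.17 CPM in d13.cont. In d13.Eif3m it was at 0.839, 0.649 and 0.986 CPM, below all others, and the difference was −2.45 (SE 0.48, adjusted p = 0.0193). Gbp9, a guanylate-binding protein whose exons overlap Gbp4 and Gbp8, is not in that list and changed direction. Levels of Gbp9 in d9.cont were 7.66, 7.03 and 6.93 CPM and in d9.Eif3m 13.8, 11.9 and 10.6 CPM. The d13.cont libraries had 7.81, 5.98 and 8.34 CPM and the d13.Eif3m libraries 3.22, 2.78 and 3.39 CPM. The d9.Eif3m libraries were the highest and the d13.Eif3m libraries the lowest of all, and the difference was −1.99 (SE 0.23, adjusted p = 0.00232). Ifi47, an interferon-induced GTPase, differed by −1.34 (SE 0.27, adjusted p = 0.0234), and Usp18, which removes ISG15, by −1.41 (SE 0.29, adjusted p = 0.023). The number called ran from 1 (without d9.Eif3m 1) to 8 (without d13.Eif3m 2), and was 0 by limma-voom with weights per group. It was 7 without d9.Eif3m 2 and 3 or fewer without d9.cont 1, d9.cont 2, d9.Eif3m 3, d13.cont 1 or d13.Eif3m 3. Ifi47 was not called in 2 of 12 leave-one-out fits, those without d9.cont 2 and d9.Eif3m 1 (adjusted p up to 0.0523). The call of Usp18 was lost in 4 of 12 leave-one-out fits, those without d9.Eif3m 1, d9.Eif3m 3, d13.cont 1 and d13.Eif3m 3 (adjusted p up to 0.0613).

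Acute phase proteins are plasma proteins that hepatocytes raise under IL-6 and IL-1. Of 30 tested members 6 were called, all below 0, beside 1.66% of all tested genes called below 0. The median effect was 0.04 at day 9 and −0.55 at day 13. Orm2, an alpha-1 acid glycoprotein and close copy of Orm1, was the leading member. At day 9 Orm2 was at 13.3, 10.3 and 12.6 CPM in d9.cont and 13.5, 7.10 and 12.3 CPM in d9.Eif3m. Day 13 gave 26.4, 26.6 and 40.4 CPM in d13.cont and 4.06, 3.34 and 2.08 CPM in d13.Eif3m. The groups overlapped at day 9, and at day 13 controls were the highest and siRNA libraries the lowest of all. The difference was −3.19 (SE 0.39, adjusted p = 0.00256). Lcn2, which binds bacterial siderophores, went from an effect of −1.27 (SE 0.32) to −3.49 (SE 0.37), a difference of −2.22 (SE 0.48, adjusted p = 0.0421).

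Saa3, a serum amyloid A form of macrophages and adipocytes, rose at day 9. It was at 2.24, 2.44 and 3.38 CPM in d9.cont, 7.80, 6.45 and 9.04 CPM in d9.Eif3m, 9.82, 7.27 and 4.33 CPM in d13.cont and 5.73, 2.504 and 2.52 CPM in d13.Eif3m, where the day 13 groups overlap. The difference was −2.56 (SE 0.46, adjusted p = 0.0148). Lifr, the receptor for the IL-6 family cytokine LIF, went from an effect of −0.23 (SE 0.11) to −1.56 (SE 0.12), a difference of −1.32 (SE 0.16, adjusted p = 0.00232). For Lifr the day 13 levels were 424, 513 and 556 CPM in d13.cont and 173, 178 and 156 CPM in d13.Eif3m. Its d13.Eif3m libraries were the lowest of all. Without single libraries 2 to 5 acute phase members were called, with 2 called without d9.cont 2, d9.Eif3m 1, d9.Eif3m 3 or d13.Eif3m 3, and 3 without d9.cont 1, d9.cont 3, d13.cont 1 or d13.cont 3. Leaving out 1 library ended the call of Lcn2 in 8 of 12 fits, each but those without d9.cont 1, d9.cont 3, d9.Eif3m 2 and d13.cont 2 (adjusted p up to 0.0954).

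Stellate cell and matrix genes had 7 of 31 tested members called, all below 0, beside 1.66% of all tested genes called below 0. Their median effect was 0.30 at day 9 and −0.31 at day 13. At day 9, 5 members were called higher and at day 13, 12 were called lower. Col14a1, a collagen of fibrils' surface, changed direction. The day 9 levels of Col14a1 were 60.6, 65.0 and 56.9 CPM in d9.cont and 89.4, 75.8 and 76.5 CPM in d9.Eif3m. At day 13 Col14a1 was at 93.9, 93.8 and 100.3 CPM in d13.cont and 57.5, 69.5 and 56.1 CPM in d13.Eif3m. The siRNA libraries lay above the controls at day 9 and below them at day 13, and the difference was −1.06 (SE 0.16, adjusted p = 0.00554). Col3a1, a fibrillar collagen, went from an effect of 0.82 (SE 0.23) to −0.88 (SE 0.24), a difference of −1.70 (SE 0.33, adjusted p = 0.0209), and Col1a2 differed by −1.65 (SE 0.32, adjusted p = 0.0209). In both, d13.cont 2 was the highest library.

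Ccn2, connective tissue growth factor, is a target of YAP and TGF beta. It was at 2.37, 3.16 and 3.21 CPM in d9.cont, 6.42, 7.25 and 5.90 CPM in d9.Eif3m, 6.46, 7.69 and 7.15 CPM in d13.cont and 4.20, 3.71 and 4.60 CPM in d13.Eif3m. Its groups did not overlap at either day, and the difference was −1.93 (SE 0.24, adjusted p = 0.00242). Lyve1, a hyaluronan receptor of liver sinusoidal and lymphatic endothelium, went from an effect of 1.26 (SE 0.19) to −0.81 (SE 0.21), a difference of −2.07 (SE 0.29, adjusted p = 0.00311). Summed stellate markers (Lrat, Des, Reln and Colec11) were 83.1 to 114 CPM in d9.cont, 106 to 114 CPM in d9.Eif3m, 129 to 149 CPM in d13.cont and 112 to 119 CPM in d13.Eif3m, none called, and their part was not tested. The matrix count fell to 1 without d9.Eif3m 1 or d13.Eif3m 3, 2 without d9.cont 1, 3 without d9.cont 3 and 4 without d13.cont 2. For Col3a1 3 of 12 leave-one-out fits gave no call, those without d9.cont 1, d9.Eif3m 1 and d13.Eif3m 3 (adjusted p up to 0.0604). Col1a2 was not called in 3 of 12 leave-one-out fits, those without d9.cont 1, d9.Eif3m 1 and d13.Eif3m 3 (adjusted p up to 0.0627).

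**Figure D5:**
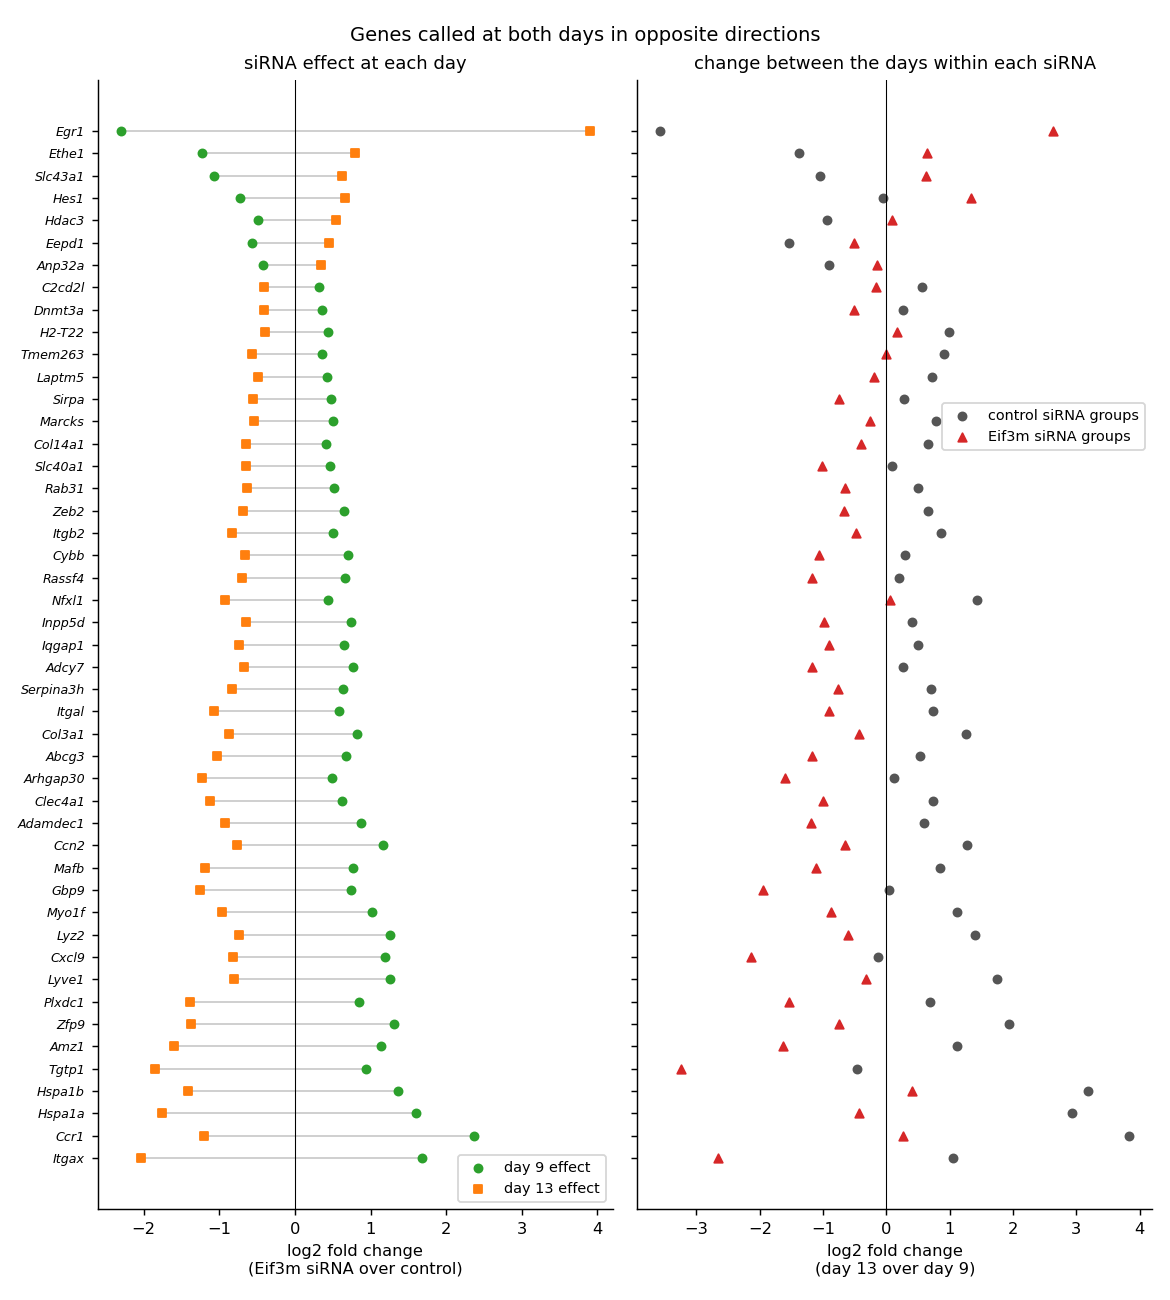
The 47 genes called at both days in opposite directions, with the log2 siRNA effect at each day on the left and the log2 change from day 9 to day 13 within the control and within the siRNA groups on the right. Each gene is a row, ordered by its difference. The 7 genes at the top go from below 0 to above it, and the 40 others the opposite way.

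Metabolic and transport genes were spread over the classes. G6pc, glucose-6-phosphatase, the last step of glucose release, was called at day 9 alone. In d9.cont G6pc stood at 27.5, 31.5 and 46.3 CPM, and in d9.Eif3m at 91.9, 250.5 and 202 CPM. At day 13 it was at 149, 204 and 214 CPM in d13.cont and 159.9, 128 and 183 CPM in d13.Eif3m. Its d9.cont libraries lay below all others, and the day 13 groups overlapped. The effect was 2.37 (SE 0.34) at day 9 and −0.27 (SE 0.33) at day 13, a difference of −2.64 (SE 0.47, adjusted p = 0.0193). Apoa5, an apolipoprotein that promotes triglyceride clearance, was at 1304 to 1432 CPM in d9.cont and 946 to 1335 CPM in d9.Eif3m. The day 13 levels were 1643, 1321 and 1234 CPM in d13.cont and 429, 541 and 353 CPM in d13.Eif3m. Its d13.Eif3m libraries were the lowest of all, and the difference was −1.47 (SE 0.25, adjusted p = 0.00916). The call of G6pc was lost in 2 of 12 leave-one-out fits, those without d13.cont 3 and d13.Eif3m 1 (adjusted p up to 0.0535). Without d13.cont 3 and d13.Eif3m 2 together 0 genes of the glucose metabolism list were called. With all libraries 2 of 30 tested were called, both below 0, beside 1.66% of all tested genes called below 0.

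Cyp2u1, a cytochrome P450 that hydroxylates fatty acids, rose at both days. Levels of Cyp2u1 in d9.cont were 22.7, 15.8 and 13.3 CPM and in d9.Eif3m 34.3, 35.5 and 28.4 CPM. In d13.cont it stood at 5.25, 4.99 and 8.45 CPM, and in d13.Eif3m at 41.3, 45.6 and 45.0 CPM. Its d13.cont libraries were the lowest and the d13.Eif3m libraries the highest, and the difference was 1.87 (SE 0.29, adjusted p = 0.00712). Fmo1, a flavin monooxygenase, fell at both days and went from an effect of −0.52 (SE 0.10) to −1.37 (SE 0.11), a difference of −0.86 (SE 0.15, adjusted p = 0.0102). Cyp4a10, a PPAR alpha target, was lower with siRNA at day 9, going from an effect of −0.67 (SE 0.16) to 0.37 (SE 0.16), a difference of 1.04 (SE 0.23, adjusted p = 0.0336). Its control mean was 385 CPM at day 9 and 83.1 CPM at day 13. Leaving out 1 library ended the call of Cyp4a10 in 8 of 12 fits, each but those without d9.cont 1, d9.Eif3m 3, d13.cont 1 and d13.Eif3m 2 (adjusted p up to 0.103).

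Lonp1, the mitochondrial Lon protease, was at 146, 143 and 144 CPM in d9.cont and 155, 208 and 169 CPM in d9.Eif3m. Its levels in d13.cont were 168, 145 and 143 CPM and in d13.Eif3m 428, 360.1 and 389 CPM. The d13.Eif3m libraries stood above all others while the control ranges of the days overlapped, and the difference was 1.07 (SE 0.17, adjusted p = 0.00737). Ethe1, a mitochondrial sulfur dioxygenase, changed from lower to higher. At day 9 Ethe1 was at 43.1, 35.6 and 40.8 CPM in d9.cont and 15.0, 17.9 and 18.1 CPM in d9.Eif3m. The d13.cont libraries had 12.9, 19.9 and 13.3 CPM and the d13.Eif3m libraries 27.97, 19.4 and 32.5 CPM. The groups overlapped at day 13, where d13.Eif3m 2 lay within the control range, and the difference was 2.02 (SE 0.27, adjusted p = 0.00277). Slc43a1, an amino acid transporter, went from an effect of −1.07 (SE 0.15) to 0.62 (SE 0.17), a difference of 1.69 (SE 0.23, adjusted p = 0.00277). Arrdc3, an arrestin-domain protein, was at 371, 429 and 199.6 CPM in d9.cont, 122, 123 and 162 CPM in d9.Eif3m, 88.5, 83.6 and 116 CPM in d13.cont and 111, 191 and 161 CPM in d13.Eif3m. The d9.cont libraries of Arrdc3 were the highest, and the difference was 1.98 (SE 0.39, adjusted p = 0.0249). For Arrdc3 4 of 12 leave-one-out fits gave no call, those without d9.cont 1, d9.Eif3m 1, d13.cont 1 and d13.Eif3m 3 (adjusted p up to 0.0667).

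Of 21 tested immediate early genes 2 were called, and of 19 core clock genes 1, beside 2.55% of all tested genes. Egr1, an immediate early zinc finger factor, had the highest difference of the genes that changed direction and varied widely. The day 9 levels of Egr1 were 52.7, 18.1 and 65.3 CPM in d9.cont and 13.5, 5.28 and 8.88 CPM in d9.Eif3m. Day 13 gave 4.31, 4.99 and 2.38 CPM in d13.cont and 18.6, 71.5 and 79.7 CPM in d13.Eif3m. The groups did not overlap at either day, and the controls fell from a mean of 45.4 to 3.89 CPM between the days. The difference was 6.20 (SE 0.99, adjusted p = 0.0186). Junb, an AP-1 subunit, went from an effect of −0.36 (SE 0.17) to 1.15 (SE 0.22), a difference of 1.51 (SE 0.28, adjusted p = 0.0151), with control means of 31.9 and 5.17 CPM. Per1, a repressor of the circadian clock, was at 10.7, 12.5 and 21.8 CPM in d9.cont, 29.0, 25.7 and 29.1 CPM in d9.Eif3m, 20.3, 10.54 and 21.2 CPM in d13.cont and 6.01, 7.23 and 3.18 CPM in d13.Eif3m, and differed by −2.56 (SE 0.47, adjusted p = 0.0199). The time of day of tissue collection is not given in the sources used here. Without d13.cont 3 the call of Egr1 was lost (adjusted p = 0.0577). The call of Per1 was lost in 2 of 12 leave-one-out fits, those without d13.cont 1 and d13.cont 3 (adjusted p up to 0.0519). Without d13.cont 3 and d13.Eif3m 2 together 0 of 21 immediate early genes were called, against 2 of 21 with all libraries. The same fit called 0 of 19 core clock genes, against 1 with all libraries.

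Sox9, a factor of bile duct and progenitor cells, was 1 of 2 called members among 17 tested cholangiocyte, progenitor and keratin genes. Both members were above 0, beside 0.898% of all tested genes called above 0. In d9.cont Sox9 stood at 4.06, 3.24 and 2.85 CPM, and in d9.Eif3m at 3.68, 4.90 and 3.98 CPM. For Sox9 the day 13 levels were 2.15, 1.99 and 1.95 CPM in d13.cont and 7.55, 8.81 and 8.21 CPM in d13.Eif3m. The d13.Eif3m libraries were the highest of all, and the difference was 1.71 (SE 0.27, adjusted p = 0.00737). The list had 1 called member above 0 in each leave-one-out fit but those without d13.cont 2, with 2, and d13.Eif3m 2, with 3 above 0 and 1 below. Summed cholangiocyte markers (Krt19, Krt7, Epcam and Sox9) were 5.02 to 8.05 CPM in d9.cont, 6.49 to 8.05 CPM in d9.Eif3m, 5.27 to 6.50 CPM in d13.cont and 10.5 to 13.4 CPM in d13.Eif3m, and their part was not tested.

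In 15 of the lists, apart from that of sex-linked genes, none of 443 tested genes was called by edgeR. Of the 443, 39 had an unadjusted p under 0.05 above 0 and 24 below, beside 2598 of all 14248 genes in either direction. DESeq2 called 6 of the 443 above 0 and 7 below, and limma-voom 0. Of 25 tested genes of cholesterol synthesis, 15 were called lower at day 9 and 11 at day 13, with median effects of −0.88 and −0.73.

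Other lists without a called difference were those of the small-subunit assembly factors (median effects 0.28 and 0.49), the mitochondrial ribosomal proteins (0.00 and 0.22), the proteasome (−0.11 and −0.01), the nuclear subunits of oxidative phosphorylation (−0.21 and −0.10) and fatty acid oxidation (−0.23 and −0.24). Hnf4a, a master factor of hepatocytes, was at 485 to 552 CPM in d9.cont, 572 to 632 CPM in d9.Eif3m, 629 to 751 CPM in d13.cont and 612 to 733 CPM in d13.Eif3m. Its difference of −0.22 (SE 0.16) had an adjusted p of 0.534. A p above the threshold does not show that the days were alike. Without d13.cont 3 and d13.Eif3m 2 together, 3 mitochondrial ribosomal proteins and 1 gene of cholesterol synthesis were called above 0. The same fit called 2 subunits of oxidative phosphorylation below 0. Of the 364 called genes, 270 were in none of the 53 lists.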

How the data were processed

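Liver RNA of 12 libraries was sequenced after mRNA capture. The authors deposited RSEM expected counts per gene (STAR 2.5.3a, RSEM 1.3.0 and mm10, per the submitters' processing notes). Annotation release and strand setting: not given in the sources used here. Symbols came from GENCODE M21 for 50376 of 50686 identifiers, and the 310 others held 0.0308% of counts. Expected counts were rounded to whole numbers, filtered with filterByExpr (minimum count 10), scaled by TMM and fitted over the 4 groups with edgeR 4.0.16 (R 4.3.3) by its quasi-likelihood test with 8 residual degrees of freedom and Benjamini-Hochberg adjustment over all tested genes. All adjusted p-values in the text are from edgeR unless another tool is named. The script was tested on simulated data.

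Alternatives were DESeq2 1.42.0 and its size factors, upper-quartile scaling, no filter, a mean of at least 5 CPM, limma 3.58.1 voom with and without weights per group, a replicate block, day 9 counts thinned to a total of 8591308, and leaving out each library. The members and gene lists were chosen with earlier results of these data known. Named genes were Eif3m, in each class and direction the 4 with the smallest p at a mean of at least 5 CPM, and in each list up to 4 called members with the smallest p or, with none called, the member with the highest mean; examples were taken from these. Genes with close copies or overlapping exons may share counts.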

Additional observations from a re-analysis of the deposited data

Results flagged for a closer look

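The test of the difference between the days itself called 364 genes. The log2 differences (day 13 effect minus day 9 effect) of most genes named above are given here by class. Values come from the interaction contrast in edgeR, and no explanation was tested. Where the effect was called at both days and was larger at day 13, it was that of Trib3 (3.47), Mup21 (2.36), Gdf15 (2.28), Gadd45a (2.21), Hspb1 (2.04), Cyp2u1 (1.87), Snhg1 (1.83), Ddit3 (1.60) and Zfas1 (1.57). The same class held Gas5 (1.34), Eef1b2 (0.94), Plk2 (0.91), Pabpc4 (0.84), Rps4x (0.79), Rplp0 (0.78), Rpl4 (0.74), Npm1 (0.66) and Fmo1 (−0.86). The same class held Prlr (−0.87), Bag3 (−1.23), Slc22a26 (−1.88), Lcn2 (−2.22) and Sult3a1 (−2.36). Where it was called at both days and was smaller at day 13, it was that of Plin3 (0.58). Where it was called at both days in opposite directions, it was that of Egr1 (6.20), Ethe1 (2.02), Slc43a1 (1.69), Col14a1 (−1.06), Slc40a1 (−1.11), Itgal (−1.65), Col3a1 (−1.70), Ccn2 (−1.93) and Gbp9 (−1.99). The same class held Lyz2 (−2.00), Lyve1 (−2.07), Hspa1b (−2.78), Hspa1a (−3.37) and Itgax (−3.72). Where it was called at day 13 alone, it was that of Hsd3b5 (2.35), Sox9 (1.71), C6 (1.53), Junb (1.51), Lonp1 (1.07), Eif3i (0.89), Gpt2 (0.84), Herpud1 (−0.84) and Dnajb1 (−1.14). The same class held Ddit4 (−1.32), Lifr (−1.32), Ifi47 (−1.34), Csf1r (−1.39), Usp18 (−1.41), Ctss (−1.44), Apoa5 (−1.47), Adgre1 (−1.53) and Col1a2 (−1.65). The same class held H2-Aa (−1.67), Cd74 (−1.70), Dnajb9 (−1.92), Fmo2 (−1.96), Socs2 (−2.29), Zbp1 (−2.45), Per1 (−2.56), Orm2 (−3.19) and A1bg (−4.99). Where it was called at day 9 alone, it was that of Arrdc3 (1.98), Cyp4a10 (1.04), H2-Q7 (−1.53), Cd44 (−1.61), Clec7a (−2.04), Saa3 (−2.56) and G6pc (−2.64).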

How the results depend on the processing

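With DESeq2 968 genes were called for the difference, 451 above 0 and 517 below, with 161 that grew, 4 that faded, 69 of opposite direction, 534 at day 13 alone, 163 at day 9 alone and 37 at neither day. With limma-voom and weights per group there were 134, 48 above 0 and 86 below, with 23 that grew, 0 that faded, 31 of opposite direction, 55 at day 13 alone, 25 at day 9 alone and 0 at neither day. With the day 9 counts thinned to the depth of day 13 there were 220, 71 above 0 and 149 below, with 28 that grew, 0 that faded, 28 of opposite direction, 136 at day 13 alone, 27 at day 9 alone and 1 at neither day. These fits called 3881 (weights) and 1199 (thinned) genes at day 9 and 1960 (weights) at day 13. Plain limma-voom called 2749 genes at day 9, and for the difference 130 at day 13 alone, 0 that faded and 0 at neither day. Upper-quartile scaling gave 0 that faded and 2 at neither day, no filter on low counts 0 and 10, and a mean of at least 5 CPM 27 at day 9 alone and 0 at neither day. Without d13.cont 3 and d13.Eif3m 2 together, chosen after seeing the data, 288 genes were above 0, 132 grew, 0 were at neither day and 3050 were called at day 9. Leaving out each library in turn gave 130 to 508 genes, 34 to 260 above 0 and 96 to 248 below, 884 to 2250 at day 9 and 2299 to 3288 at day 13. By class the ranges were 13 to 96 that grew, 0 to 1 that faded, 15 to 47 of opposite direction, 81 to 296 at day 13 alone, 16 to 68 at day 9 alone and 0 to 8 at neither day. Fewer samples or fewer counts enter the left-out and thinned fits, yet some left-out fits called more genes than the main fit. The cause of the changes was not tested for any setting. At the lower depth of day 13 a gene of a few CPM rests on few counts. Whether this limited its calls was not tested.

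Whether equal replicate numbers mark pairs is not stated. Deviations from the group mean of same-numbered libraries correlated by −0.11, −0.16, 0.16 at day 9 and 0.08, −0.07, −0.01 at day 13. Those of differently numbered libraries correlated by −0.14 to 0.23 at day 9 and −0.12 to 0.13 at day 13. Deviations within a group of 3 sum to 0, so these values cannot decide whether the numbers mark pairs. With the replicate block within each day 117 genes were called, 28 above 0 and 89 below, with 20 that grew, 0 that faded, 24 of opposite direction, 62 at day 13 alone, 11 at day 9 alone and 0 at neither day.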
